A study of Homo sapiens with 6 samples.

Results

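The genes described are 8 mouse genes of antigen presentation by the major histocompatibility complex (MHC). They were taken by Ensembl ID from a table of 77134 rows, all of which carried mouse IDs. The class I side holds H2-K1 (ENSMUSG00000061232), H2-D1 (ENSMUSG00000073411), B2m (ENSMUSG00000060802) and Tap1 (ENSMUSG00000037321). The class II side holds H2-Aa (ENSMUSG00000036594), H2-Ab1 (ENSMUSG00000073421), H2-Eb1 (ENSMUSG00000060586) and Cd74 (ENSMUSG00000024610). All 8 passed the filter on low counts, as did 12637 genes in all. The table itself pairs no ID with a symbol, so these 8 names are those given with the IDs.

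The samples were subcutaneous tumours of A549, a human lung adenocarcinoma cell line, grown in BALB/c nude mice. In the overexpression group (n = 3) the A549 cells carried the lentivirus pLV-CMV-HIF1A-AS3-EGFP-Neo, and in the vector control group (n = 3) the lentivirus pLV-CMV-EGFP-Neo. Both groups therefore share EGFP, a neomycin resistance gene and the CMV promoter, and the added element is HIF1A-AS3, an RNA transcribed antisense to human HIF1A. Nude mice lack a thymus and with it most mature T cells, but keep macrophages, dendritic cells and B cells. The labels give neither the age of the mice nor how many mice bore the 3 tumours of a group. Tumours of a group may therefore share a host, while the p-values treat the 3 as independent. They rest on tumour-to-tumour spread, which may be partly technical.

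Class I molecules are found on nearly all nucleated cells and show peptides made inside the cell to CD8+ T cells. Class II molecules are carried mainly by professional antigen-presenting cells, that is dendritic cells, B cells and activated macrophages, and show peptides taken up from outside to CD4+ T cells. Interferon-gamma raises both classes in many cell types. Because the rows are mouse genes, the values describe the host cells of the tumour together with human reads that may have been assigned to mouse genes, whose part was not tested. HIF1A-AS3 and the human genes of A549 were not analysed here, so neither the group labels nor the tumour's cell line could be checked against their own RNA. In bulk tumour RNA, fewer cells of a type and less RNA per cell cannot be told apart.

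Library totals were similar, at 4272525 to 4769157 estimated counts per overexpression library and 4167784 to 4262778 per control library. They cover mouse rows only, so they give neither the sequencing depth of a tumour nor its mouse share. Values below are CPM, counts scaled to a common library size with TMM, edgeR's correction for library composition. Overexpression replicate 1 stood apart, with a TMM factor of 0.742 against 1.02 to 1.10 in the other 5 libraries and with the fewest genes detected at 1 count or more, 17356 against 18753 to 19010. Levels of different genes are not compared with each other, since no transcript lengths were used here.

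All 8 genes had lower mean levels in overexpression tumours, but none passed the test. With TMM the 2 groups overlapped in every gene, and for Tap1 this depended on the scaling. The larger feature of the data lay inside the control group. Control replicate 2 was the highest of all 6 tumours in 8 of 8 genes, control replicate 1 the second highest in each, and control replicate 3 was the lowest control in each. Class II genes differed 10.5-fold to 11.7-fold between control replicates 2 and 3, and class I genes 3.61-fold to 4.86-fold. The 3 overexpression tumours lay close together, within 1.16-fold to 1.79-fold of each other depending on the gene, or 1.11-fold to 2.39-fold when libraries were scaled by their totals only.

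**Figure D1:**
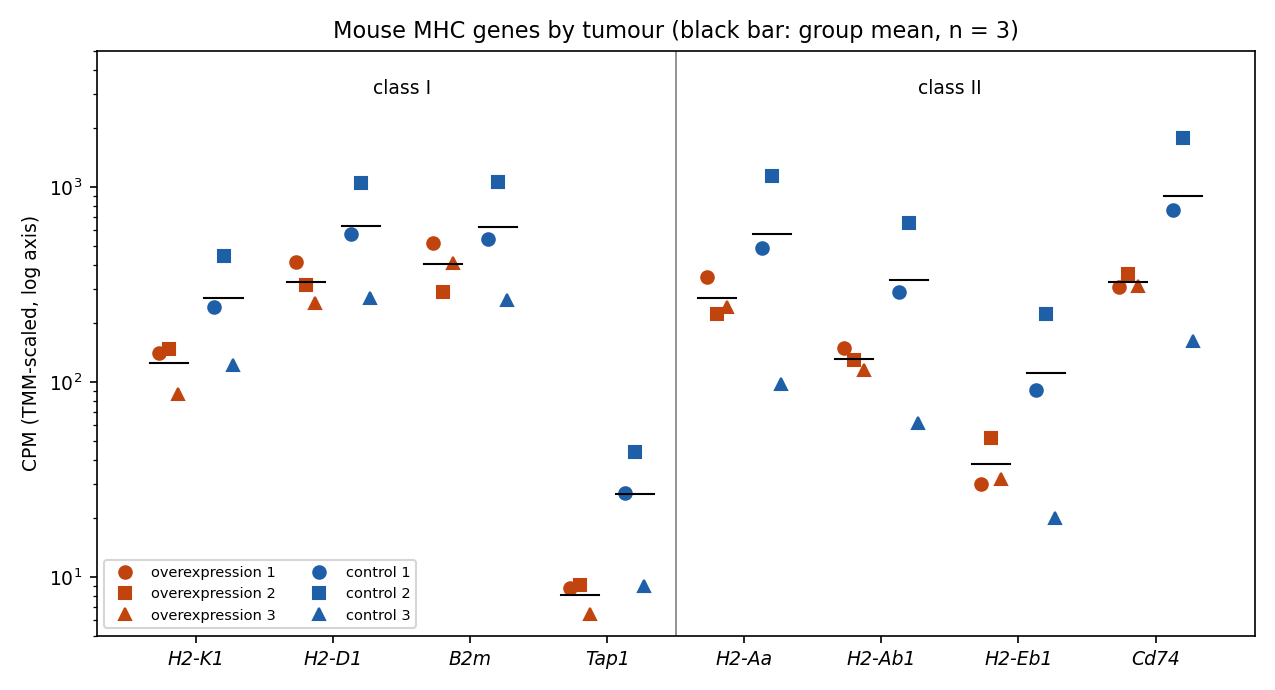
TMM-scaled CPM on a log axis for each of the 8 genes, with 1 point per tumour, overexpression tumours left of control tumours, and black bars for group means (n = 3 each). Control replicate 2 is the highest point for every gene, and for the 4 class II genes the 3 overexpression tumours lie between control replicates 3 and 1.

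H2-K1 and H2-D1 encode the heavy chains of the classical class I molecules, which hold the peptide. H2-K1 stood at 141, 148 and 86.9 CPM in overexpression replicates 1, 2 and 3, and at 243, 444 and 123 CPM in control replicates 1, 2 and 3. Overexpression replicates 1 and 2 were above the lowest control, replicate 1 only with TMM, and all 3 were below control replicates 1 and 2. In edgeR's quasi-likelihood test the log2 fold change was -1.11 (SE 0.45, 95% interval -2.15 to -0.07), at an unadjusted p of 0.040 and a p of 0.70 after Benjamini-Hochberg adjustment over 12637 genes.

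H2-D1 stood at 411, 314 and 255 CPM in overexpression replicates 1, 2 and 3, against 577, 1055 and 271 CPM in control replicates 1, 2 and 3. Only overexpression replicate 3 was below the lowest control. The fitted log2 fold change of H2-D1 was -0.96 (SE 0.46, interval -2.02 to 0.11), at an adjusted p of 0.70 in edgeR. Non-whole estimates, which arise when reads are divided between rows, were found in all 6 libraries for both heavy chain genes and for H2-Aa, H2-Ab1 and H2-Eb1, in 5 for Tap1 and in 3 for Cd74. Mouse class I genes are a family of near-identical copies. For class I heavy chains and class II chains alike, the build named in the processing notes, mm10, carries the C57BL/6 alleles. The hosts were BALB/c, which has another H2 haplotype, and the annotation behind the counts was not given. The absolute counts of these 5 genes are therefore uncertain, and how far this moved them was not tested.

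B2m encodes beta-2 microglobulin, the invariant light chain of every classical class I molecule. Its estimates were whole to within 0.001 in 5 of 6 libraries. It measured 517, 289 and 408 CPM in overexpression replicates 1, 2 and 3, and 543, 1063 and 262 CPM in control replicates 1, 2 and 3. Every overexpression tumour lay between control replicates 3 and 1. B2m had a log2 fold change of -0.62 (SE 0.48, interval -1.74 to 0.49), at an adjusted p of 0.76 in edgeR, and without control replicate 2 it was 0.01.

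Tap1 encodes a subunit of the transporter that carries peptides into the endoplasmic reticulum for loading on class I. It rested on the fewest reads, 31.0, 42.7 and 27.9 estimated counts in overexpression replicates 1, 2 and 3, against 124, 194 and 42.3 in control replicates 1, 2 and 3. On the CPM scale this was 8.80, 9.06 and 6.44 in overexpression replicates 1, 2 and 3, against 26.8, 43.9 and 9.02 in control replicates 1, 2 and 3. Overexpression replicate 2 and control replicate 3 were level, and control replicates 1 and 2 stood well above all others. Tap1 had the lowest fitted log2 fold change of the 8, -1.71 (SE 0.52, interval -2.93 to -0.49), and the smallest unadjusted p, 0.012, but its adjusted p was 0.70 in edgeR. When libraries were scaled by their totals only, the 2 groups of Tap1 values no longer overlapped, and the adjusted p was 0.73.

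H2-Aa and H2-Ab1 encode the alpha and beta chains of I-A, a class II molecule. H2-Aa stood at 345, 224 and 243 CPM in overexpression replicates 1, 2 and 3, against 486, 1142 and 97.6 CPM in control replicates 1, 2 and 3. H2-Ab1 stood at 150, 130 and 115 CPM in overexpression replicates 1, 2 and 3, against 291, 650 and 61.7 CPM in control replicates 1, 2 and 3. For both chains all 3 overexpression tumours lay inside the range of the controls, above control replicate 3 and below control replicate 1. The log2 fold changes were -1.09 (SE 0.73, interval -2.79 to 0.61) for H2-Aa and -1.34 (SE 0.69, interval -2.96 to 0.28) for H2-Ab1, and edgeR's adjusted p values were 0.73 and 0.70.

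H2-Eb1 encodes the beta chain of the other class II molecule, I-E. Its values were 29.8, 51.8 and 31.7 CPM in overexpression replicates 1, 2 and 3, against 91.5, 223 and 20.0 CPM in control replicates 1, 2 and 3. Overexpression replicate 2 was the highest of its group, and again all 3 lay between control replicates 3 and 1. For H2-Eb1 the log2 fold change was -1.55 (SE 0.74, interval -3.30 to 0.19), at an adjusted p of 0.70 in edgeR.

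Cd74 encodes the invariant chain, which occupies the class II groove until the molecule reaches the endosome. Cd74 stood at 308, 359 and 311 CPM in overexpression replicates 1, 2 and 3, against 762, 1783 and 163 CPM in control replicates 1, 2 and 3. It had the tightest overexpression values of the 8 genes on the TMM scale, within 1.16-fold, beside 10.9-fold among controls. With library totals only, its overexpression range was 1.61-fold and its control range 10.6-fold. Between the groups Cd74 had a log2 fold change of -1.47 (SE 0.71, interval -3.13 to 0.19), at an adjusted p of 0.70 in edgeR.

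Between the groups, 0 of 8 members passed an adjusted p of 0.05 in edgeR's quasi-likelihood test, where 0.0158% of all genes tested did. Members at an unadjusted p below 0.05 numbered 2, H2-K1 and Tap1, where 6.29% of all genes did. DESeq2 on the same genes gave 0 members past the adjusted threshold and 5 at an unadjusted p below 0.05, where 6.89% of all genes did, and limma-voom gave 0 and 1, where 5.59% did. The fitted log2 fold change was below 0 in 8 of 8 members and in 49.4% of all genes, and its median was -1.22 over the members, -1.03 over class I and -1.41 over class II, against 0.01 over all genes tested. The gap between the class medians depended on the method: limma-voom gave -0.86 for class I and -0.85 for class II, with class II genes at -1.01 to -0.51. On mean log2 CPM, overexpression minus control tumours was -0.89 for class I and -0.80 for class II. On TMM-scaled CPM, the groups did not overlap in 0 of 8 members and in 13.2% of all genes. Under scaling by totals the Tap1 values did not overlap either.

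**Figure D2:**
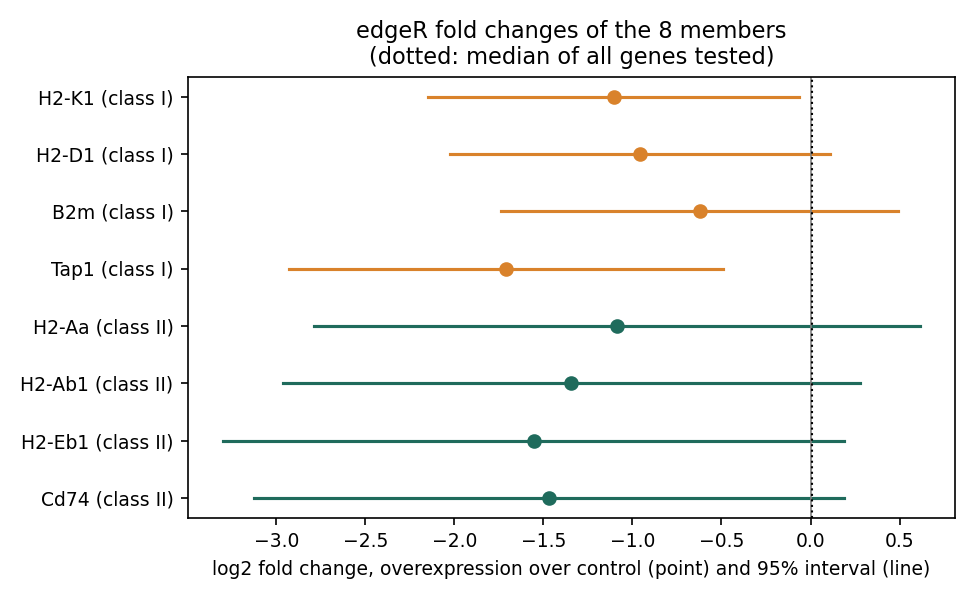
Fitted log2 fold change of overexpression over control tumours for each gene (points) with its 95% interval (lines), and the median of all genes tested (dotted line). All 8 points lie below 0, and the intervals of H2-K1 and Tap1 are the ones that end below 0.

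Single control tumours set how large these differences were. Without control replicate 2 the log2 fold changes ranged from -1.14 to 0.01 over the 8 genes, with a median of -0.46, and 7 of 8 were below 0. Without control replicate 3 they ranged from -2.12 to -0.99, with a median of -1.71. In that fit 8 of 8 members had an unadjusted p below 0.05, where 3.31% of all genes did, but adjusted p values were 0.21 to 1.00 in edgeR. Without overexpression replicate 1, the library that stood apart, the log2 fold changes ranged from -1.80 to -0.87. Nothing in the labels sets control replicate 3 apart from the other controls.

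The 2 classes moved in the same order over the controls, with a wider swing in class II. Relative to its own mean over the 6 tumours, class I (mean log2 CPM of its 4 genes) deviated by -0.17, -0.45 and -0.71 in overexpression replicates 1, 2 and 3, and by 0.55, 1.40 and -0.61 in control replicates 1, 2 and 3. For class II the deviations were -0.35, -0.30 and -0.55 in overexpression replicates 1, 2 and 3, and 0.74, 1.96 and -1.50 in control replicates 1, 2 and 3. Control replicates 2 and 3 were thus 3.46 apart on the log2 scale in class II and 2.01 apart in class I. Control replicate 3 was the lowest of all 6 tumours in 4 of 4 class II genes but in 1 of 4 class I genes, B2m. Over all genes tested it was the lowest in 17.1%.

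**Figure D3:**
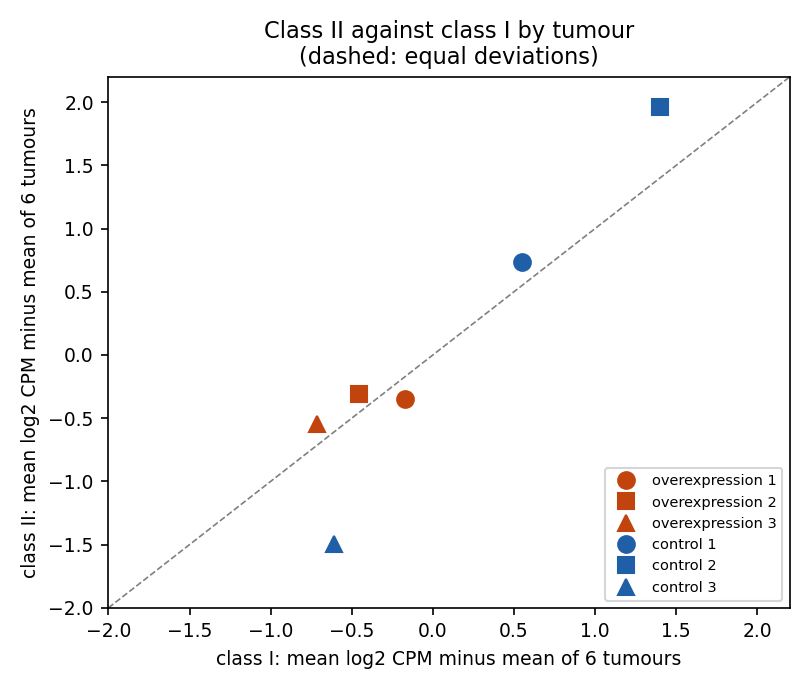
Deviation of the mean log2 CPM of the 4 class II genes (vertical) from its mean over 6 tumours, against the same for the 4 class I genes (horizontal), with 1 point per tumour and a dashed line for equal deviations. Control replicate 2 lies above the line at 1.40 and 1.96, and control replicate 3 below it at -0.61 and -1.50. Control replicate 1, at 0.55 and 0.74, and the 3 overexpression tumours lie near it.

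Set against each other within a library, the 2 classes can be compared with no scaling between libraries. The 4 class II genes together had 0.773, 1.01 and 0.926 estimated counts per count of the 4 class I genes in overexpression replicates 1, 2 and 3, and 1.17, 1.46 and 0.514 in control replicates 1, 2 and 3. The overexpression tumours again lay inside the range of the controls. On the log2 scale, class II minus class I averaged 0.42 ± 0.19 in overexpression tumours and 0.33 ± 0.75 in control tumours (SD, n = 3 each). The difference between the groups was 0.09, smaller than the spread of either group, and -0.33 without control replicate 3.

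Within class II, the genes kept nearly fixed proportions in the controls while their levels moved over 10-fold. Cd74 had 2.06, 2.76 and 2.69 estimated counts per count of H2-Ab1 in overexpression replicates 1, 2 and 3, and 2.62, 2.74 and 2.64 in control replicates 1, 2 and 3. H2-Aa had 2.30, 1.73 and 2.10 counts per count of H2-Ab1 in overexpression replicates 1, 2 and 3, and 1.67, 1.76 and 1.58 in control replicates 1, 2 and 3. H2-Eb1 had 0.200, 0.399 and 0.275 counts per count of H2-Ab1 in overexpression replicates 1, 2 and 3, and 0.314, 0.343 and 0.323 in control replicates 1, 2 and 3. Overexpression replicate 1 stood out in each of these ratios, with the most H2-Aa and the least H2-Eb1 and Cd74 per count of H2-Ab1. These ratios depend on transcript length and read sharing as well as on expression, so they are read across tumours and not as chain proportions.

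Within class I, the ratio of H2-K1 to H2-D1 was 0.343, 0.471 and 0.341 in overexpression replicates 1, 2 and 3, and 0.421, 0.421 and 0.454 in control replicates 1, 2 and 3. For B2m the ratio to H2-D1 was 1.26, 0.918 and 1.60 in overexpression replicates 1, 2 and 3, and 0.940, 1.01 and 0.969 in control replicates 1, 2 and 3. In the controls both ratios were nearly fixed, as were those within class II. Overexpression replicates 1 and 3 had more B2m per count of H2-D1 than any control. Tap1 went the other way, with 0.0214, 0.0287 and 0.0251 counts per count of H2-D1 in overexpression replicates 1, 2 and 3, and 0.0466, 0.0415 and 0.0336 in control replicates 1, 2 and 3. The 2 groups did not overlap in this ratio, which was chosen after its values were seen and rests on as few as 27.9 counts of Tap1.

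**Figure D4:**
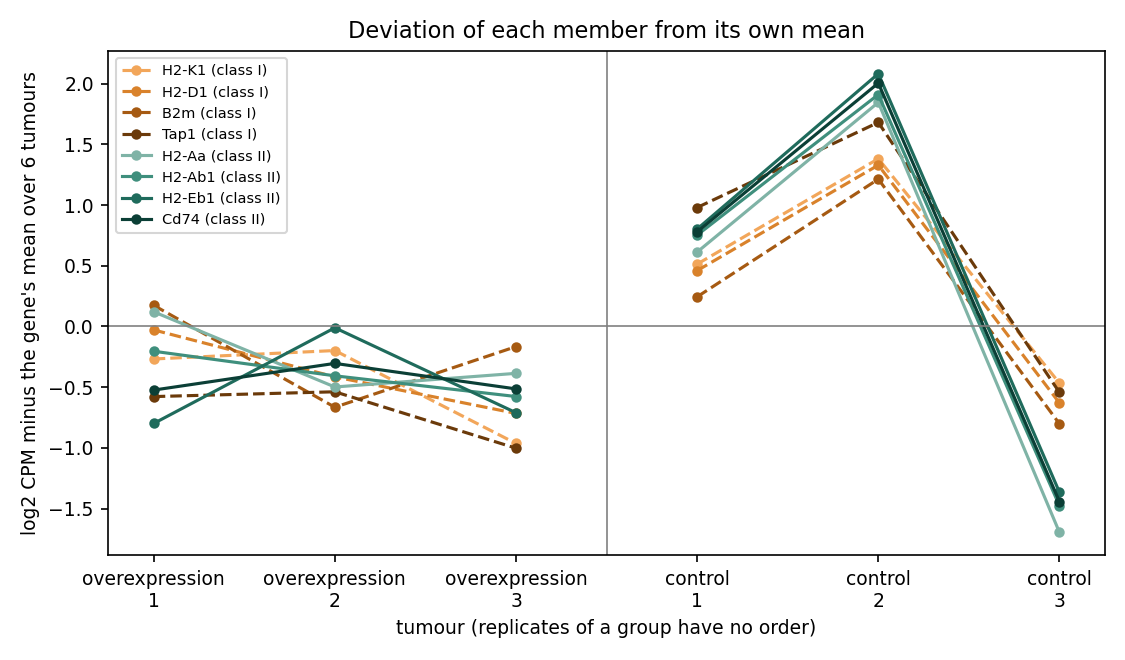
Log2 CPM of each gene minus its own mean over the 6 tumours, overexpression tumours left of control tumours, with dashed lines for class I and solid lines for class II. The 8 lines share 1 order in the controls, where class II swings wider, and cross each other in the overexpression tumours.

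The order of the controls, replicate 2 above 1 above 3, was found in 8 of 8 members and in 25.1% of all genes tested. Replicate 2 was the highest of the 6 tumours in 8 of 8 members and in 12.5% of all genes. This order was picked after the members' values were seen, and the 8 genes moved alike over the controls. These counts, and those of the SD below, therefore describe the 6 tumours and are no test. The SD of log2 CPM among controls was 1.72 to 1.80 for class II genes and 0.93 to 1.14 for class I genes, against a median of 0.20 over all genes. Between 1.13% and 1.24% of all genes had a larger control SD than a given class II gene, and between 2.33% and 3.36% one larger than a given class I gene. Among overexpression tumours the SD was 0.12 to 0.43 for class II genes and 0.26 to 0.42 for class I genes, against a median of 0.37 over all genes. On this TMM scale Cd74 and H2-Ab1 varied least there: 91.8% of all genes had a larger overexpression SD than Cd74 and 82.4% one larger than H2-Ab1. The place of Cd74 depended on the scaling. With library totals only it ranged 1.61-fold among overexpression tumours, where H2-K1 (1.71-fold) and H2-Eb1 (2.39-fold) were wider and the other members narrower. The SD was larger in controls than in overexpression tumours in 8 of 8 members, whereas this held for 23.6% of all genes. Without control replicate 2 the count was still 8 of 8, since control replicates 1 and 3 alone differed 4.58-fold to 4.98-fold in class II and 1.98-fold to 2.97-fold in class I.

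**Figure D5:**
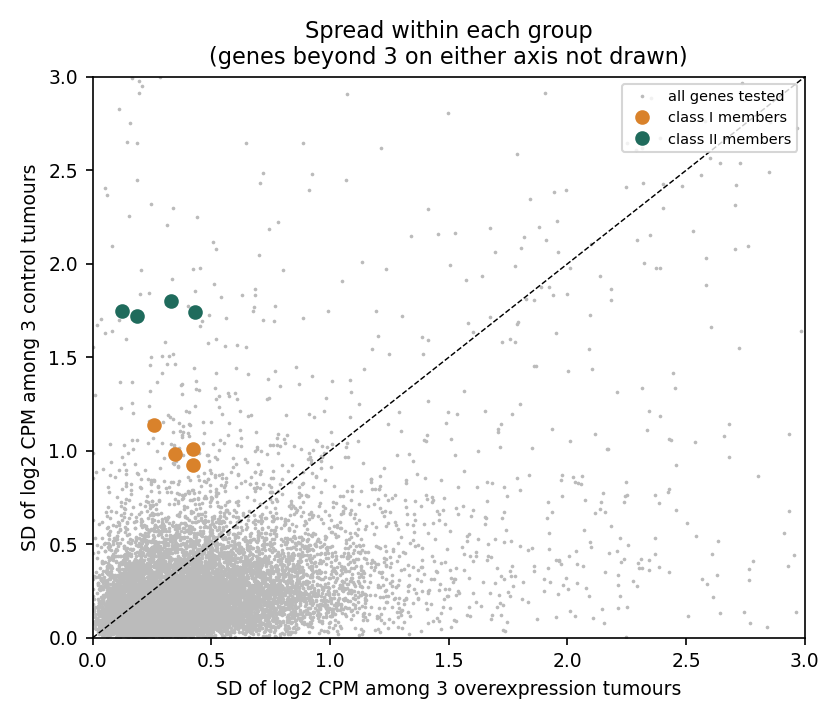
SD of log2 CPM among the 3 control tumours (vertical) against that among the 3 overexpression tumours (horizontal) for all genes tested (grey) and the 8 members (coloured), with a dashed line for equal SD. The class II genes lie at control SDs of 1.72 to 1.80 and the class I genes at 0.93 to 1.14, all above the line.

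Likeness of pattern was measured as the root mean square difference, over the 6 tumours, of log2 CPM centred on each gene's mean, with a rank of 1 for the nearest of the 12636 other genes tested. The 6 tumours share depth, scaling and the wide swing of the controls, so these ranks describe the libraries only. From each class II gene, the other class II genes ranked 1 to 20, with a median rank of 5. The class I genes ranked 18 to 73 from the class II genes. Cd74 and H2-Ab1 differed by 0.15, and Cd74 was the nearest of all genes to H2-Eb1, at 0.19.

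By rank, class I was looser. From each class I gene, the other class I genes ranked 1 to 1419, with a median rank of 22.5. The differences themselves overlapped, at 0.18 to 0.59 within class I and 0.15 to 0.48 within class II. Among H2-K1, H2-D1 and Tap1 they were 0.18 to 0.37, so the wider class I range came from B2m. H2-D1 was the nearest of all genes to H2-K1, at 0.18, while Tap1 ranked 1419 from B2m, at 0.59. The class II genes ranked 38 to 5155 from the class I genes, the last being H2-Eb1 seen from B2m, at 0.71. These ranks depend on how many genes swing as widely as the gene they start from: the median difference to all genes was 0.74 from B2m and 1.20 from H2-Eb1.

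Genes outside the list that were nearer to the mean class II pattern than the farthest class II member, at 0.24, numbered 3. Each class II member is part of that mean, which draws it nearer than an outside gene. The count therefore cannot show how tight the class is. The nearest was ENSMUSG00000053318.8, at 3.69, 4.004 and 3.22 CPM in overexpression replicates 1, 2 and 3, against 9.73, 18.1 and 1.72 CPM in control replicates 1, 2 and 3. Next came ENSMUSG00000036322.14, at 152, 125 and 116 CPM in overexpression replicates 1, 2 and 3, against 259, 639 and 51.1 CPM in control replicates 1, 2 and 3, which was also the nearest of all genes to both H2-Aa and H2-Ab1. Both had adjusted p values of 0.70 in edgeR between the groups. The files pair these IDs with no symbol. For the same reason other genes of the class I and class II pathways could not be picked out, nor markers of macrophages, dendritic cells and B cells. The unnamed genes above may therefore be among them. The part of host cell content in the swing among controls was not tested.

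Of all estimated counts on mouse rows, the 8 genes together took 0.141%, 0.155% and 0.148% in overexpression replicates 1, 2 and 3. In control replicates 1, 2 and 3 they took 0.330%, 0.679% and 0.110%. The group means were 0.148% ± 0.007 in overexpression tumours and 0.373% ± 0.287 in control tumours (SD, n = 3 each). The overexpression tumours thus held shares between those of control replicates 3 and 1, far closer to each other than any pair of controls. How close they were depended on the scaling, since these shares use library totals. With TMM, summed class I CPM was 1078, 760 and 756 in overexpression replicates 1, 2 and 3. Summed class II CPM was 833, 766 and 700 there.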

How the data were processed

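Total RNA of 6 tumours was sequenced as 1 library each. The authors deposited 1 table of estimated counts per gene with no normalization, per the file header. The submitters' processing notes name, with no role or order, HISAT2 2.2.1, Trimmomatic 0.39, edgeR, DESeq2, featureCounts 2.0.6 and the build mm10. The table's own name points to salmon, with version and annotation not given in the sources used here. All 6 columns matched a tumour by name.

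Estimated counts were rounded and fitted in R 4.3.3 with edgeR 4.0.16 (filterByExpr, TMM, robust quasi-likelihood F-test, group only) over 12637 genes holding 99.5% of counts, with Benjamini-Hochberg adjustment and a threshold of 0.05. Standard errors are the log2 fold change over the square root of F, and a prior count of 2 entered log2 CPM. Alternatives used DESeq2 1.42.0, limma 3.58.1, other scalings and filters, a block by replicate number and leaving out each library. The fit was also run on simulated data, with the same relative spread set for all genes in both groups. That run does not cover the unequal spread of the members. A count of 0 would allow up to 3 counts, or 0.632 to 0.852 CPM by library, for counting error only; no member was at 0.

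The members and lists were chosen with earlier results of these data known. All 8 members are named. The pathway and marker lists by symbol could not be matched, since 0 of the table's IDs were in the name tables used. Same-numbered libraries deviated from their group means with correlations across genes of -0.09, -0.34 and -0.10 for numbers 1, 2 and 3, so numbers were not treated as pairs.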

Additional observations from a re-analysis of the deposited data

How the results depend on the processing

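No member passed the threshold under any of 13 alternatives, and the fitted log2 fold change stayed below 0 for every member except B2m without control replicate 2. Leaving out each library gave ranges of -1.45 to -0.54 for H2-K1, -1.32 to -0.37 for H2-D1, -0.99 to 0.010 for B2m, -2.12 to -1.14 for Tap1, -1.59 to -0.10 for H2-Aa, -1.83 to -0.42 for H2-Ab1, -2.05 to -0.55 for H2-Eb1 and -1.96 to -0.50 for Cd74. The end nearest 0 came without control replicate 2 for each gene, and the end farthest from 0 without control replicate 3. With a replicate block 0 members and 0 genes passed, with member log2 fold changes of -1.49 to -0.42 and class medians of -0.86 (class I) and -0.88 (class II); same-numbered libraries did not deviate together, so the block stays an alternative. The number of all genes past the threshold, 2 in edgeR, was 28 with DESeq2, 7 with limma-voom, 14 without the filter on low counts, 4 under scaling by totals and 0 to 14 with 1 library left out. Library totals moved the median of all genes to -0.22, and relative to that median the members stood at -0.66 (B2m) to -1.72 (Tap1), against -0.63 to -1.72 with TMM. The group difference of class II minus class I, 0.09, was 0.10 with a prior count of 0.5, -0.10 with summed CPM, 0.12 with class I as B2m and Tap1 only or class II without Cd74, and -0.33 to 0.39 with 1 library left out, so its sign is not settled. The larger control SD in 8 of 8 members held with library totals and without each library, settings chosen after seeing the data. The share of all genes with a larger control SD moved in these settings. It was 18.0% without control replicate 2, the lowest, and 39.8% without overexpression replicate 2, the highest. Tap1, with as few as 27.9 counts, is the member whose precision depth limits most.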
